A study of Mus musculus with 6 samples.

Results

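The genes described here are 9 transcription factors that drive progenitors of the nervous system, and of the cortex in particular, to become neurons. They were chosen by name from the table of all genes: *Neurog1*, *Neurog2*, *Neurod1*, *Neurod4*, *Atoh1*, *Insm1*, *Eomes*, *Tbr1* and *Myt1*, each found as 1 row among 53378 genes with a value in every library. The libraries came from neural stem cells (NSCs), self-renewing precursors grown as neurospheres with EGF and FGF, taken from the telencephalic cortex of mouse embryos. All cells carried *Tbl1xr1* flox/flox, that is, both copies of *Tbl1xr1* had recombination sites around its exon V. The control group was infected with GFP (replicates 1, 1_1 and 2) and the other with Cre (replicates 2, 2_2 and 3), the recombinase that removes the flanked exon. *Tbl1xr1* codes for a subunit of the NCOR corepressor complex, and the comparison asks how its loss changed the expression of these factors. Embryos and cultures behind each library are not named in the labels, so the spread between libraries may be partly technical.

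Proneural factors such as *Neurog1*, *Neurog2* and *Atoh1* are basic helix-loop-helix (bHLH) proteins that bind E-boxes in DNA together with E proteins, commit progenitors to the neuronal fate and are opposed by Hes and Id proteins. In the cortex *Neurog2* acts in the dorsal, glutamatergic lineage, in which *Pax6*-positive radial glia give rise to *Eomes*-positive intermediate progenitors and these to *Tbr1*-positive neurons. The *Dlx* genes act mainly in the ventral forebrain, the source of GABAergic interneurons.

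Of the 9 factors, 4 were detected, meaning more than 3 reads in every library of at least 1 group: *Myt1* and *Insm1* in both groups, and *Neurog2* and *Eomes* only in the libraries labelled Cre. *Neurod4* lay near the floor, with at most 4 reads in any library. The other 4 never exceeded 3 reads in a library, and 2 of them, *Neurog1* and *Atoh1*, had no read at all. Reads assigned to genes numbered 7510615 to 11161497 in the control libraries and 11893230 to 14828100 in the Cre libraries. *Tbl1xr1* itself had normalized counts (reads divided by the size factor of the library) of 2522, 2190 and 2721 in controls and of 3774, 3463 and 2905 in Cre libraries. The mRNA of the targeted gene did not fall in Cre libraries (log2 difference 0.45 ± 0.14 (SE), limma adjusted p = 0.0600, and past the threshold in DESeq2, 0.0398, and in limma without Cre 3, 0.0234), but values over the whole gene do not show whether 1 exon is missing. The study also tested such cells, sorted for GFP, by genotype, mRNA and protein, and those measurements were not used here. Every direction below rests on the labels. As to the labelled tissue, the forebrain and cortical genes *Emx2* and *Lhx2* had 1037 and 401 reads in the controls together, while *Emx1*, a gene of the dorsal telencephalon, had 1 read in all 6 libraries.

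*Neurog2* and *Eomes* were the members detected in the Cre group alone, and their promoters are shown for what they have in common. Both are 300 bases from RefSeq (build GRCm38.p6, plus strand), 250 before and 50 after an annotated start of transcription. The *Neurog2* window lies wholly within the RefSeq bounds of the gene, which begin upstream of it at 127632733. The capitals mark TATATAAG, a TATA box sequence noticed on reading these windows.

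*Neurog2*, chr3:127632886-127633185: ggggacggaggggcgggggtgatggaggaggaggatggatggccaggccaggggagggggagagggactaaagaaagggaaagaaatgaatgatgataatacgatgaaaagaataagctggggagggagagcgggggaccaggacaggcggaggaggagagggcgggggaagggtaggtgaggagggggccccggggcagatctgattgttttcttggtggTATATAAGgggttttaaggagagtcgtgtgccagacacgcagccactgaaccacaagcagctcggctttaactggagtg
*Eomes*, chr9:118477939-118478238: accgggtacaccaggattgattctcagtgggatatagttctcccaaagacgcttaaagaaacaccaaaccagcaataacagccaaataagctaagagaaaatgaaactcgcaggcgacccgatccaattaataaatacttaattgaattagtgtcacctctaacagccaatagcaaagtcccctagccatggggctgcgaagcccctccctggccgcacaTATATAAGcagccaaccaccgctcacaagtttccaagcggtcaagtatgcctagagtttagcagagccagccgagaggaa

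The first T of the motif stood at position -29 of *Neurog2* and at -30 of *Eomes*, counted back from the start. TATATAAG on either strand was found in 1.01% of all 32851 promoters of this length, and in no other window among the 11 of the 8 members with an entry. Because the motif was picked on reading these 2 windows, that share cannot test the match. None of the 11 windows held CAGATG (on either strand, read as CATCTG on the other), an E-box that proneural factors bind, which 17.2% of all promoters held. CATATG was found in that of *Neurod1* (3.91% of all promoters), and CAGCTG in 1 of the 2 of *Neurod4* (16.3%). AGGTGTGA, a site bound by T-box factors such as Eomes and Tbr1, was in none of them and in 1.28% of all promoters.

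*Neurog2* (ENSMUSG00000027967, chr3:127632733-127635636), the neurogenin of dorsal cortical progenitors, had no read in any control library and 7, 23 and 22 reads in Cre libraries 2, 2_2 and 3. These correspond to normalized counts of 4.85, 19.8 and 19.7. The groups did not overlap, and Cre library 2 stood below the other two, at 0.472 reads per 1000000 (RPM; 95% exact Poisson interval 0.190 to 0.973) against 1.88 (1.19 to 2.83) and 1.85 (1.16 to 2.80). All intervals given here cover counting error only. The control libraries together held 26434933 reads, so that at the rate of all Cre reads 35.3 *Neurog2* reads would have been due in them, and 12.5 at the rate of the lowest Cre library. With 3 reads over the control group as the limit that a count of 0 allows, the pooled Cre rate was 11.8-fold that limit. The Cre rate, 1.34 RPM (95% exact Poisson interval 0.998 to 1.75), enters without its counting error, so 11.8 is not a lower bound.

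*Eomes* (ENSMUSG00000032446, chr9:118478186-118486132), the T-box factor of intermediate progenitors, gave a similar picture. Controls 1, 1_1 and 2 had 0, 1 and 0 reads, and Cre libraries 2, 2_2 and 3 had 13, 12 and 14, or normalized counts of 9.003, 10.3 and 12.5. The Cre libraries were close to each other and all above the controls, with means of 10.6 ± 1.78 against 0.488 ± 0.845 (SD, n = 3). The ratio of pooled rates, from 39 reads against 1, was 26.5 (95% exact interval 4.48 to 1072). A long noncoding gene of the annotation, Gm33408, overlaps the start of *Eomes*, and since the library kit does not mark strand, reads in the shared stretch cannot be assigned to either.

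Both genes had mean values under the filter of 10 normalized counts and were left out of the main test. The exact permutation test on the normalized counts gave p = 0.1 for each, two-sided, the smallest p that 3 against 3 libraries allow. With no filter, limma on log2(normalized count + 1) gave differences of 3.77 ± 0.69 (SE) for *Neurog2* and 3.09 ± 0.66 for *Eomes*, with adjusted p = 0.0027 and 0.00866. These differences understate the change of genes so low. edgeR on the reads, also with no filter, gave adjusted p = 1.04e-05 and 0.00331. In that limma fit 2.51% of 27585 genes were called higher in the Cre libraries, in that edgeR fit 4.21%, and the Cre libraries lay wholly above the controls for 9.95% of these genes and wholly below for 10.2%. DESeq2 without the filter gave adjusted p = 0.00097 for *Neurog2* and none for *Eomes*. With any 1 library left out, the edgeR call of *Neurog2* held (adjusted p from 4.67e-07 to 0.00108), while that of *Eomes* was lost without control 1 (0.0666) and held without any other (0.00331 in all 6, at most 0.0389). The limma fit without the filter kept *Neurog2* only without Cre 2 (0.0158; 0.101 to 0.164 without any other) and lost *Eomes* in every case (0.0856 to 0.156). At most 1 read in each control and at least 7 in each Cre library, limits set after seeing these values, were found for 11 genes of 27585 (0.0399%), *Neurog2* and *Eomes* among them, and the reverse for 5 (0.0181%). These limits are on reads, and every Cre library had more reads than any control. The limits are thus easier to meet with Cre high than in reverse, and the 11 and 5 are not directly comparable.

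**Figure D1:**
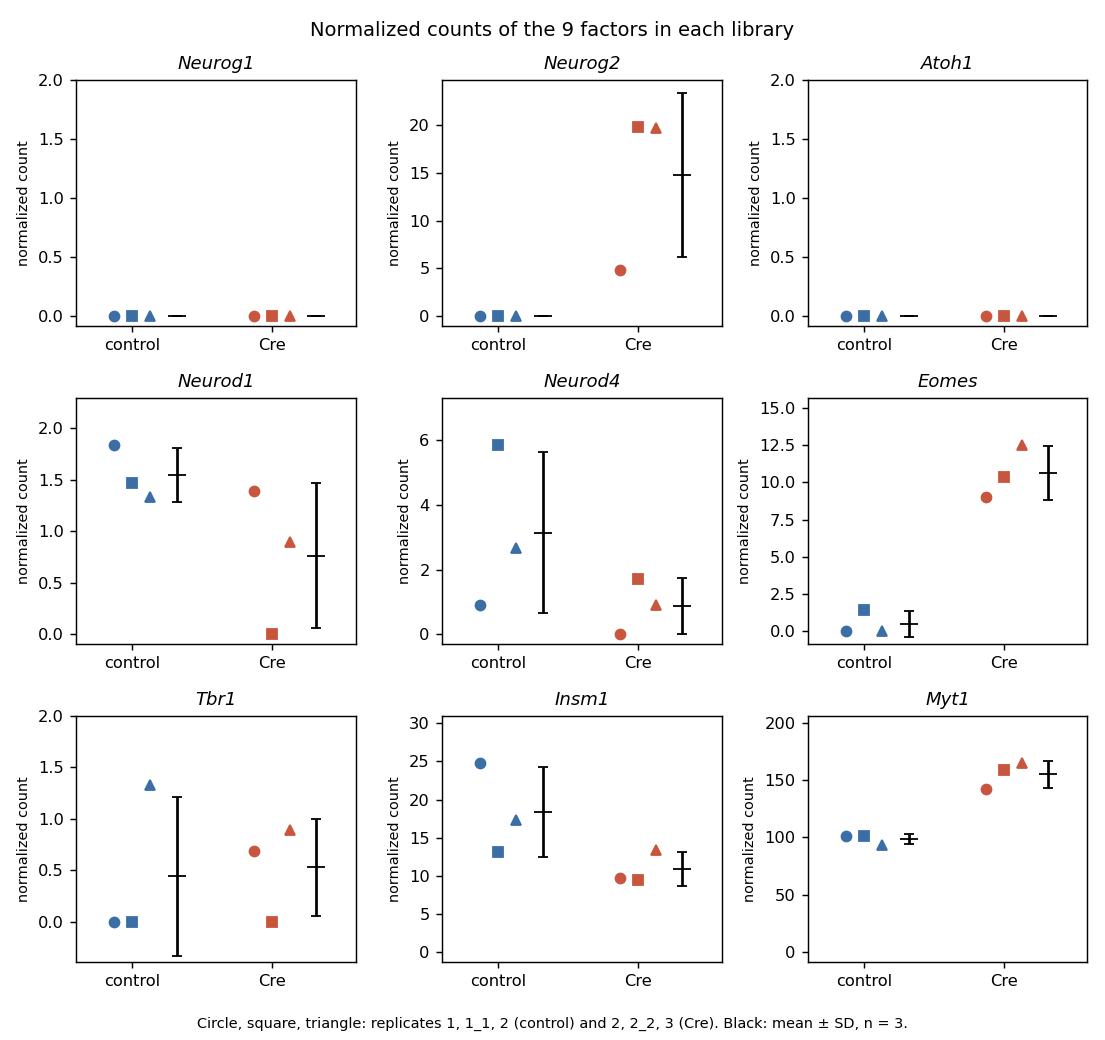
Normalized counts of the 9 factors, 1 panel each with its own axis; points are libraries (3 control in blue, 3 Cre in red) and black marks the mean ± SD. *Neurog2* and *Eomes* were at or near 0 in the controls, all 3 Cre values of *Myt1* (142 to 165) lay above the controls (93.4 to 100.9), and the groups overlapped for *Insm1*, *Neurod1*, *Neurod4* and *Tbr1*.

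*Myt1* (ENSMUSG00000010505, chr2:181763332-181827775), a zinc finger factor that acts with proneural proteins and is also expressed in the oligodendrocyte lineage, was the most abundant member. Its normalized counts were 100.9, 100.9 and 93.4 in controls 1, 1_1 and 2 and 142, 158 and 165 in Cre libraries 2, 2_2 and 3. The groups did not overlap, which was so in this direction for 14.7% of the 14840 genes tested and in the other for 15.5%. The means were 98.4 ± 4.38 and 155 ± 11.8 (SD, n = 3), a log2 difference of 0.65 ± 0.17 (SE) with limma adjusted p = 0.0376 over all genes tested. *Myt1* was thus the 1 member called among the 2 that could be tested, where 4.74% of all genes tested were called higher and 5.22% lower. The size was steady, from 0.60 to 0.71 on the log2 scale over all settings, but the call was close to the threshold. It was lost in limma without control 1 (0.124), control 1_1 (0.0929), control 2 (0.127), Cre 2_2 (0.115) or Cre 3 (0.0736), with controls 1 and 1_1 averaged (0.0974), and with no filter in limma (0.0530) and in DESeq2 (0.0512). It held without Cre 2 (0.027). A pseudogene, Gm18895, lies within the bounds of *Myt1*.

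*Insm1* (ENSMUSG00000068154, chr2:146221997-146225020), a zinc finger factor that promotes the formation of basal progenitors, went the other way in its means without passing the test. Controls 1, 1_1 and 2 had 24.8, 13.2 and 17.3 normalized counts (27, 9 and 13 reads), and Cre libraries 2, 2_2 and 3 had 9.70, 9.47 and 13.4 (14, 11 and 15 reads). Control 1_1 lay below Cre 3, so the groups overlapped. The log2 difference was -0.68 ± 0.41 (SE), with unadjusted p = 0.126 and limma adjusted p = 0.334. Pooled over each group, *Insm1* stood at 1.85 RPM (95% exact Poisson interval 1.37 to 2.45) in controls and at 1.03 (0.734 to 1.40) in Cre libraries. No member was called lower, nor was any by edgeR or DESeq2.

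The remaining members gave no sign of expression beyond scattered reads. *Neurod1*, which acts as neurons begin to differentiate, had 2, 1 and 1 reads in controls and 2, 0 and 1 in Cre libraries. *Neurod4*, another neuronal differentiation factor, had 1, 4 and 2 against 0, 2 and 1. *Tbr1*, the T-box factor of early-born deep-layer neurons, had 0, 0 and 1 against 1, 0 and 1. The groups overlapped for all 3, and none allowed a fold change. *Neurog1*, the second neurogenin of the dorsal telencephalon, and *Atoh1*, the proneural factor of the hindbrain and inner ear, had 0 reads in all 6 libraries, which allows at most 0.113 RPM over the control group and 0.0771 over the Cre group. The genes that follow *Eomes* in the cortical sequence, *Neurod1* and *Tbr1*, were therefore at the floor also in the libraries in which *Eomes* was found.

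Levels can be set between genes only per length, here as RPKM (RPM divided by the kb of exon), with exon lengths from the GENCODE M1 annotation. On that scale *Myt1* stood at 1.35 in controls and 2.14 in Cre libraries, *Insm1* at 0.570 and 0.334, *Neurog2* at 0 and 0.630 and *Eomes* at 0.0107 and 0.244. *Myt1* was at the 46.1 percentile in controls and the 51.5 percentile in Cre libraries of the 20374 genes with a read and a length. In Cre libraries *Insm1* (0.291 to 0.407) lay above *Eomes* (0.211 to 0.283), while *Neurog2* (0.212 to 0.846) overlapped both. For comparison, *Olig2*, a bHLH factor of oligodendrocyte and ventral progenitors, stood at 201 in controls and 328 in Cre libraries, and the E protein gene *Tcf3*, picked after its values were seen, at 23.1 and 16.1. These cells thus held far more mRNA of both than of any of the 9.

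**Figure D2:**
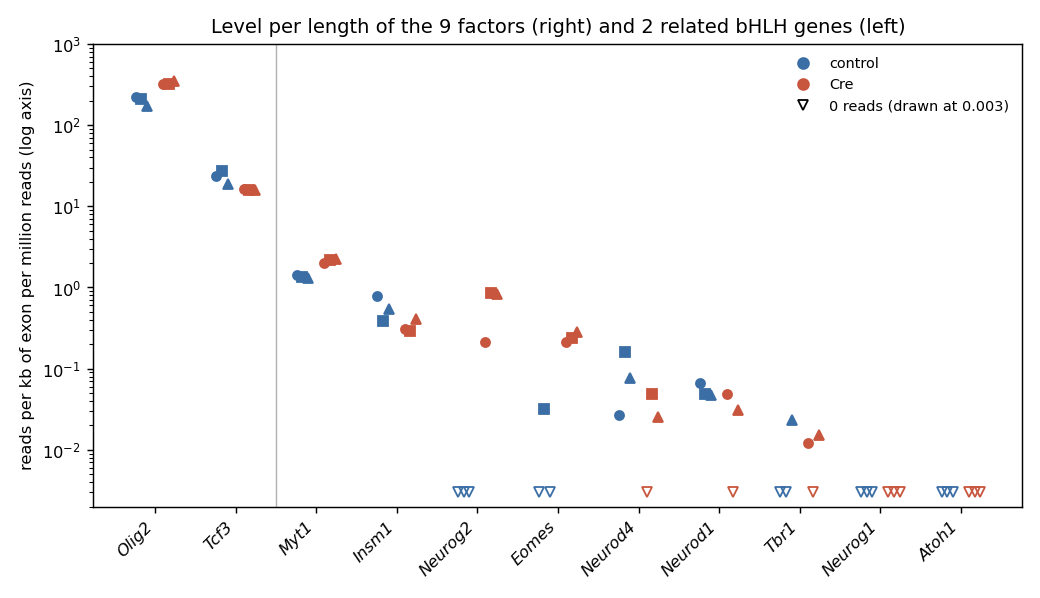
RPKM (log axis) of *Olig2* and *Tcf3*, left of the line, and of the 9 factors, for each control (blue) and Cre (red) library; open triangles at the bottom are libraries with 0 reads. Only *Myt1* reached 1 among the 9, while *Olig2* and *Tcf3* lay above 16 in every library.

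Among 10 other proneural and neurogenic bHLH genes, 4 were detected and 3 tested. *Olig2* was higher in Cre libraries, with 8380 ± 581 normalized counts against 5157 ± 677 (SD, n = 3; log2 difference 0.71 ± 0.13, limma adjusted p = 0.00747). *Neurog3* and *Neurod6* had no read. Of the 3 E proteins, the partners of bHLH factors, none was called by limma, 1 had an unadjusted p under 0.05, and edgeR and DESeq2 called 1 each, *Tcf3*, lower (988 ± 208 against 681 ± 10.6, limma adjusted p = 0.0553). *Tcf4*, the most abundant, had 9384 ± 440 against 10792 ± 552.

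Of 10 inhibitors of proneural factors 8 were tested, 5 with a positive log2 difference, and 2 were called higher. Both are Id genes, whose proteins sequester E proteins. *Id4* had 10.1, 7.31 and 6.67 normalized counts in controls and 78.3, 123 and 76.1 in Cre libraries, a log2 difference of 3.36 ± 0.33 (limma adjusted p = 0.00018). *Id2* had means of 871 ± 56.9 and 1181 ± 48.4 (0.44 ± 0.11, limma adjusted p = 0.0347), a call lost without control 1, 1_1 or 2 or Cre 2_2 (0.0996 to 0.130). The list's median log2 difference was 0.18, and that of all genes tested was -0.00102.

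Of 10 genes known as targets of proneural factors 9 were tested. In limma none was called higher and 1 was called lower, *Mfng*, a modifier of Notch receptors. Its normalized counts were 113, 95.1 and 117 in controls and 28.4, 27.5 and 37.6 in Cre libraries (log2 difference -1.77 ± 0.24, limma adjusted p = 0.00123). In the higher direction 2 of these targets had an unadjusted p under 0.05, and their names and values, seen before they were picked, were *Dll1*, the Notch ligand (153 ± 36.6 against 232 ± 52.0, limma adjusted p = 0.114), and *Rnd2*, a GTPase of migrating neurons (164 ± 9.51 against 302 ± 110, adjusted p = 0.0676). The list's median was -0.06. edgeR and DESeq2 called *Mfng* lower and also *Rnd2* higher, with adjusted p = 0.0488 and 0.0099.

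The paralogs of the members were at or near the floor apart from *Mga*. None of the 3 paralogs of *Myt1* and *Insm1* (*Myt1l*, *St18* and *Insm2*) was detected, and *Insm2*, the highest, had 1, 0 and 0 reads in controls and 6, 6 and 0 in Cre libraries. Of the T-box genes, *Mga*, a broadly expressed partner of Max, had 1125 ± 107 and 1267 ± 48.0 normalized counts and was not called (limma adjusted p = 0.388).

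Genes of the dorsal and of the ventral forebrain were set beside *Neurog2* and *Eomes*. Of 9 cortical progenitor factors 8 were tested and limma called none, with 4 at an unadjusted p under 0.05 and 0 and 1 called by edgeR and DESeq2. *Sox4* had the highest mean (8933 ± 1111 against 12361 ± 1693, limma adjusted p = 0.0667, 0.0341 without Cre 3 and 0.0311 in DESeq2). *Pax6*, which is upstream of *Neurog2* in the cortex and was picked after its values were seen, had 307, 300 and 349 in controls and 369, 369 and 388 in Cre libraries (log2 difference 0.24 ± 0.13, adjusted p = 0.295). Among 11 ventral forebrain and GABAergic factors 2 were tested, and *Dlx1*, a homeobox factor of interneuron progenitors, fell: 265, 208 and 293 in controls against 0, 10.3 and 11.6 in Cre libraries (log2 difference -5.60 ± 0.76, limma adjusted p = 0.00133). The other tested gene of the list, *Gad1*, an enzyme of GABA synthesis, had 99.4 ± 4.30 against 92.0 ± 24.0 (log2 difference -0.14 ± 0.22, adjusted p = 0.747). The neighbour of *Dlx1*, *Dlx2*, below the filter and picked after its values were seen, had 13, 3 and 8 reads in controls and 1, 0 and 0 in Cre libraries, a pooled rate 35.3-fold lower (95% exact interval 5.76 to 1454). Cre library 2, the lowest of its group for *Neurog2*, was also the library with no read of *Dlx1*.

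**Figure D3:**
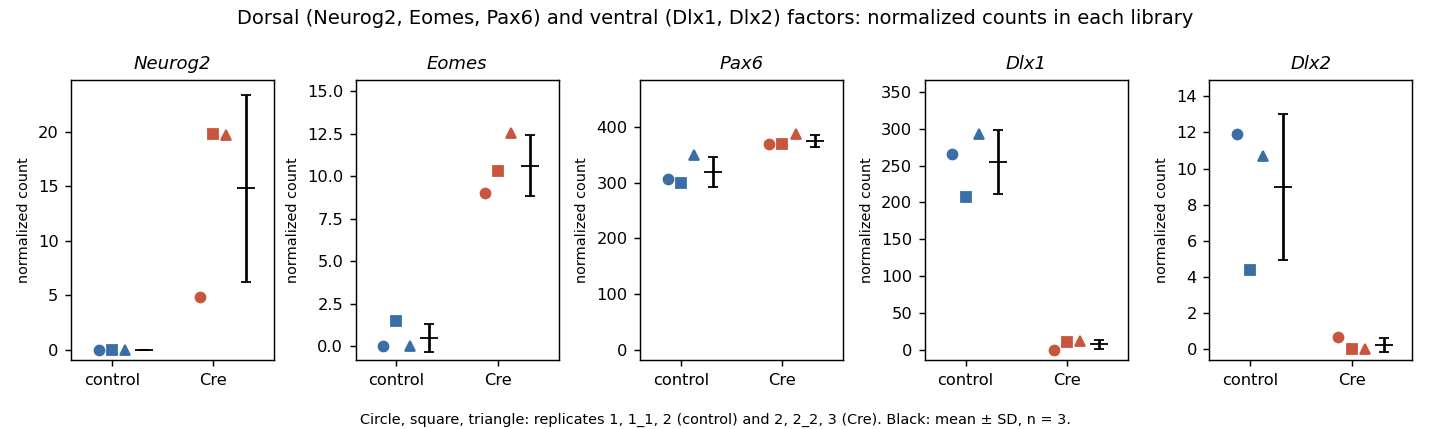
Normalized counts of *Neurog2*, *Eomes* and *Pax6* (dorsal) and of *Dlx1* and *Dlx2* (ventral) in each library, each panel with its own axis, with mean ± SD in black (n = 3). The groups did not overlap in any of the 5 panels; *Dlx1* had 208 to 293 in controls and at most 11.6 in Cre libraries.

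Genes of differentiated neurons were called in both directions. Of 10 cortical glutamatergic neuron factors 9 were tested and 1 was called, *Mef2c* (557 ± 57.2 against 962 ± 317, log2 difference 0.74 ± 0.21, limma adjusted p = 0.0454), with a list median of 0.39. That call was lost without any library other than Cre 2 (0.0837 to 0.178). Of 14 neuronal markers 8 were tested. *Elavl4*, an RNA-binding protein of neurons, rose from 96.6 ± 20.8 to 479 ± 32.1 (2.32 ± 0.18, limma adjusted p = 3.7e-05), *Gap43*, a growth cone protein, fell from 8711 ± 438 to 5196 ± 1010 (-0.76 ± 0.15, adjusted p = 0.00975, but 0.0572 without control 2), and the list's median was -0.12. *Stmn2* and *Slc17a6* had no read. The markers summed to 17710 to 18795 normalized counts in controls and to 15275 to 17262 in Cre libraries. Most of that sum was *Gap43* and *Map2*, which went opposite ways in their means (*Map2* 9210 ± 95.2 against 10541 ± 626, not called).

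Markers of other neural cells moved with the groups as well. Of 9 astrocyte markers 8 were tested, 7 with a positive log2 difference, and 5 were called higher. Of all genes tested 4.74% were called higher. The 5 were led by *S100b* (238 ± 14.7 against 2064 ± 407), *Aqp4* (11.5 ± 2.98 against 38.9 ± 15.6), *Slc1a2* (518 ± 53.2 against 1160 ± 92.7) and *Sox9* (4272 ± 444 against 8657 ± 1379). The list's median was 0.77 on the log2 scale. *Aldh1l1* was the tested marker with the opposite sign (17.3 ± 2.34 against 5.35 ± 3.3, groups without overlap, log2 difference -1.65 ± 0.51, limma adjusted p = 0.0650). *Gfap*, the astrocyte marker below the filter, had 0, 1 and 3 reads in controls 1, 1_1 and 2. In Cre libraries 2, 2_2 and 3 it had 3, 12 and 2. The 9 astrocyte markers summed to 12617 to 13646 in controls and 20477 to 24063 in Cre libraries. Most of that sum was *Sox9* and *Slc1a3* (6060 ± 221 against 7408 ± 88.3, not called). Of 10 oligodendrocyte precursor markers 7 were tested, all with a positive log2 difference, and 3 were called higher. These were *Pdgfra* (162 ± 24.9 against 296 ± 52.1), *Cspg4* (239 ± 25.3 against 374 ± 53.2) and *Olig2*, with a list median of 0.69. *Sox10*, *Gpr17* and *Mog* lay below the filter, *Sox10* with 4, 1 and 2 reads in controls and 1, 13 and 5 in Cre libraries. The list's sums were 12504 to 14411 and 17250 to 19660, mostly *Olig2* and *Olig1* (7872 ± 1204 against 8952 ± 1803, not called). In limma *Aqp4* lost its call without control 1, control 1_1 or Cre 2_2 (adjusted p = 0.0821 to 0.107), *Pdgfra* without control 2 (0.0703) or Cre 2_2 (0.0696), and *Cspg4* without any control or Cre 3 (0.0621 to 0.121). Of 8 neural stem cell markers, all tested, 1 was called, *Nes*, and lower (6229 ± 912 against 3435 ± 357), with a list median of 0.30. The 7 microglial and endothelial markers had 1 member tested, *Csf1r* (183 ± 25.7 against 222 ± 53.3, limma adjusted p = 0.483), and *Cldn5* and *Cdh5* had no read. In such bulk samples fewer cells of a type and less RNA per cell cannot be told apart, and the part of these markers in the values of the 9 factors was not tested.

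**Figure D4:**
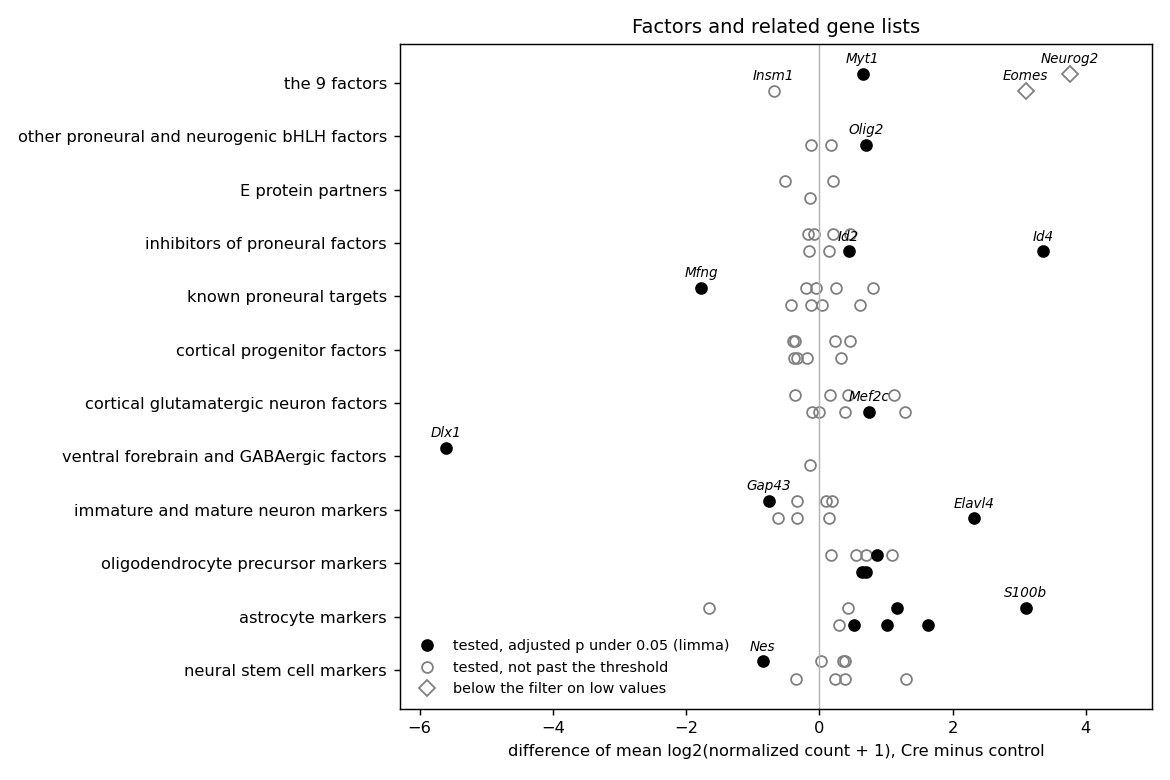
Difference of mean log2(normalized count + 1), Cre minus control, for the tested genes of each list; filled points passed limma's adjusted p of 0.05, and diamonds are *Neurog2* and *Eomes*, which lay below the filter and were left out of that test. *Dlx1* (-5.60) lay farthest to the left and *Neurog2* (3.77) farthest to the right.

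By the root mean square difference of log2 values centred on each gene's mean over the 6 libraries, the genes closest in pattern to *Myt1* were *Fchsd2* (0.0328), *4930581F22Rik* (0.0477) and *Ptprz1* (0.0519). Those closest to *Insm1* were *Rps27a* (0.0933), *Ufsp1* (0.115) and *Pcbp3* (0.116).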

How the data were processed

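RNA was sequenced from 3 control and 3 Cre libraries of cortical NSCs. The authors deposited normalized counts, a signal per gene obtained by dividing reads by 1 size factor per library. The submitters' processing notes name STAR 2.7, DESeq2 and mm10, and the study's methods TopHat with mm9 and mm10. The deposited comparison columns (fold changes and p-values) were not used. The value of 1 read was found per library, with which 100% of values were whole reads (within 0.1), of 53378 genes (1 more lacked a value). The 9 members and all gene lists were chosen with earlier results of these data known.

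limma 3.58.1 (R 4.3.3; lmFit, eBayes with trend) used log2(normalized count + 1) of 14840 genes whose mean reached 10, with Benjamini-Hochberg adjustment and a threshold of 0.05. It called 704 genes higher and 774 lower, and edgeR 4.0.16 on the reads called 737 and 746. DESeq2 1.42.0, other filters, scalings and pseudocounts, averaged replicates and leaving out each library were alternatives. Tests were tried on simulated data. From each list the called genes without overlap (at most 4, by size) were named, else the most abundant; other names were picked with their values known, and some list genes are not reported here. Coordinates and promoters are those of RefSeq (GRCm38.p6). 3 reads were taken as the limit of a count of 0. Permutation tests and intervals used scipy 1.17.1.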

Additional observations from a re-analysis of the deposited data

How the results depend on the processing

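The number of detected members was 4, 6 with any read in every library of a group and 3 with at least 10. Members called higher numbered 1 (*Myt1*), 0 with controls 1 and 1_1 averaged, 2 with no filter in limma (*Neurog2* and *Eomes*, without *Myt1*), 3 with no filter in edgeR (these and *Myt1*), 1 with no filter in DESeq2 (*Neurog2*, without *Myt1*), and 0 to 3 when 1 library was left out. The fits with averaged replicates kept the filter, so *Neurog2* and *Eomes* were not tested in them. No alternative called a member lower. The fits with no filter in edgeR or DESeq2, and those with no filter that left out a library, were added after seeing the data. *Myt1* kept its direction in all 30 alternatives and its call in 12, and *Insm1* stayed lower and not called in all 29 that tested it. Over all genes, 1478 were called, 660 with controls 1 and 1_1 averaged, and, with 1 library left out, 558 to 2396 in limma, 1185 to 3014 in edgeR with no filter (2297 without Cre 3) and, in limma with no filter, 0, 2, 12, 17, 39 and 451; the 0 came from limma with no filter and without control 2, where 3810 genes had an unadjusted p under 0.05. Fewer libraries entered those fits. At 26434933 control reads, changes in members under about 3 reads a library could not be seen. No paired analysis was possible because the groups share only 1 replicate number.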
